A study of Arabidopsis thaliana with 48 samples.

Results

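The indole glucosinolate genes are 10 Arabidopsis thaliana genes for the synthesis and control of tryptophan-derived glucosinolates. They were taken by their gene identifiers from the table of transcript levels, where all 10 of them were found, with 11 transcripts, among 33553 genes. The rule that picks them uses no measured value, although the set was drawn up with earlier results of these data known. RNA had been sequenced from 3 libraries of wild-type (WT) seedlings and 3 of acc1-5 seedlings, both of the Col-0 ecotype. acc1-5 is an allele of ACC1, the gene of the cytosolic acetyl-CoA carboxylase, and how it alters the gene is not given in the sources used here. All seedlings were 12 days old and had been kept on plates in cycles of 16 h light and 8 h dark. The labels state a spray with 20 µM estradiol or DMSO lasting 24 h in the same words for every sample, so they do not tell whether seedlings harvested for RNA were sprayed. The series title names cytosolic acetyl-CoA and acetylation of histone H3, and the RNA part of the design sets the transcript levels of the mutant against WT.

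Glucosinolates are sulfur-rich glucosides of the cabbage order that become toxic or deterrent when myrosinases cut off their glucose. The indole class starts from tryptophan. Cytochromes of the CYP79B pair turn it into indole acetaldoxime, which CYP83B1 oxidises, and a conjugate with glutathione is then trimmed, cleaved, glucosylated and sulfated. Indole acetaldoxime is also the source of camalexin and other defence compounds and can feed auxin synthesis. MYB34, MYB51 and MYB122 are R2R3-type transcription factors that switch the indole pathway on, and enzymes of the CYP81F and IGMT families then modify the indole ring.

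The deposited values are 1 level per genotype, in FPKM (fragments mapped to a transcript, scaled to its length and to the size of the library), each with a lower and an upper confidence bound by the authors. No value of a single library was at hand, so nothing below has a spread between libraries, and the only test is the authors' own. A gene was called where the authors' q-value was under 0.05, and where a gene had several transcripts the one with the highest mean level stood for it. Among 20509 genes tested, 10.9% were called higher and 9.04% lower in acc1-5. The confidence bounds of the genotypes lay apart for 6.88% of tested genes. The median log2 ratio of acc1-5 to WT over all tested genes was -0.01. ACC1 itself had 33.1 FPKM in WT (21.6 to 44.7) and 33.4 in acc1-5 (21.4 to 45.4), so its level does not tell the genotypes apart.

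Of the 10 indole glucosinolate genes, 3 were called higher in acc1-5, none was called lower and 7 were not called. The 3 were the regulator MYB34 and both genes of the entry step, CYP79B2 and CYP79B3. The share of 3 in 10 stands against 10.9% among all tested genes, and 0 in 10 against 9.04%. The median log2 ratio of the 10 genes was 0.35, and 8 of the 10 had a ratio above 0, against 49.3% of all tested genes. The log2 ratios ran from -0.27 for MYB51 to 1.12 for MYB34. With a q-value under 0.01 in place of 0.05, CYP79B3 was no longer called.

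**Figure D1:**
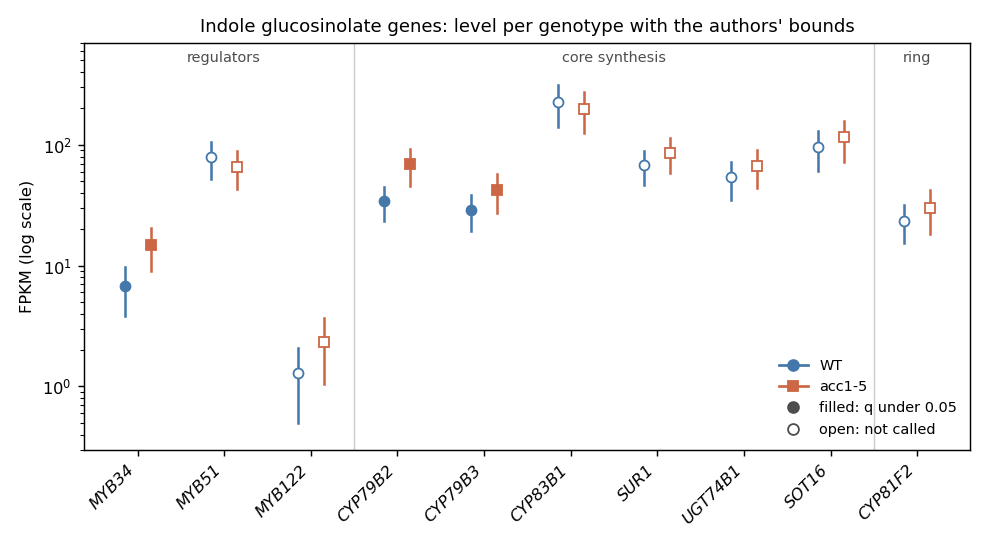
Level of each indole glucosinolate gene in WT (circles) and acc1-5 (squares), in FPKM on a log scale. Lines are the authors' confidence bounds, and filled symbols mark genes with q under 0.05. The bounds lie apart for CYP79B2 and overlap for the other 9 genes. Among all tested genes they lie apart for 6.88%.

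Among the regulators, MYB34 (AT5G60890, chromosome 5, 24494691 to 24496351 on TAIR10) stood at 6.80 FPKM in WT (bounds 3.81 to 9.75) and at 14.8 in acc1-5 (8.95 to 20.6). It was 2.18-fold higher in acc1-5, with q = 0.000746 in the authors' deposited table, although the bounds overlapped. Only 8.00% of tested genes whose mean level lay within 2-fold of that of MYB34 had an absolute log2 ratio at least as large.

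MYB51 (AT1G18570, chromosome 1, 6389411 to 6391267) was the most abundant of the 3 regulators in both genotypes. It had 79.6 FPKM in WT (52.4 to 106) and 66.1 in acc1-5 (42.9 to 89.2), a log2 ratio of -0.27 with q = 0.438 in the authors' deposited table. MYB122 (AT1G74080, chromosome 1, 27855699 to 27857534) was the weakest, at 1.29 FPKM in WT (0.494 to 2.07) and 2.36 in acc1-5 (1.05 to 3.65). Its log2 ratio of 0.87 was not called (q = 0.136 in the authors' deposited table). At so low a level the test had little reach. Of 227 genes near MYB122 in level (within 2-fold) and in the size of the log2 ratio (within 0.1), 14.1% were called.

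The 3 regulators made up different shares of their sum in the estimates of each genotype. MYB51 made up 90.8% of their summed FPKM in WT and 79.4% in acc1-5, and MYB34 7.75% and 17.8%. The ratio of MYB51 to MYB34 was 11.7 in WT and 4.47 in acc1-5. The sum itself was 87.6 FPKM in WT and 83.2 in acc1-5. Whether the changes of MYB34 and MYB51 differ from each other was not tested, since that needs the single libraries.

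The entry step had the other 2 called genes. CYP79B2 (AT4G39950, chromosome 4, 18525246 to 18527579) stood at 34.4 FPKM in WT (23.2 to 44.8) and 69.2 in acc1-5 (45.7 to 92.7). This was a 2.01-fold higher level, with q = 0.000746 in the authors' deposited table, and CYP79B2 was the member whose bounds did not overlap. CYP79B3 (AT2G22330, chromosome 2, 9488554 to 9491187), which encodes an enzyme with the same activity, had 28.9 FPKM in WT (19.3 to 38.4) and 42.4 in acc1-5 (27.1 to 57.7). Its level was 1.47-fold higher (q = 0.0365 in the authors' deposited table) and the bounds overlapped. Together the pair had 63.3 FPKM in WT and 112 in acc1-5, and CYP79B2 supplied 54.3% of that sum in WT and 62.0% in acc1-5.

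Of the members, the 4 core enzymes after the entry step and CYP81F2 were not called. CYP83B1 (AT4G31500, chromosome 4, 15273471 to 15275310), which commits the aldoxime to glucosinolates, had the highest level of the 10 genes. It stood at 228 FPKM in WT (140.4 to 314) and 199 in acc1-5 (124 to 272), a log2 ratio of -0.20 with q = 0.692 in the authors' deposited table. The summed level of the CYP79B pair was 27.8% of that of CYP83B1 in WT and 56.2% in acc1-5.

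SUR1 (AT2G20610, chromosome 2, 8877960 to 8880388), the C-S lyase, had 67.8 FPKM in WT (46.2 to 89.5) and 85.5 in acc1-5 (58.1 to 113), with q = 0.288 in the authors' deposited table. It was the only member with a second listed transcript, which stood at 2.55 FPKM in WT and 2.73 in acc1-5. UGT74B1 (AT1G24100, chromosome 1, 8525435 to 8527087), the glucosyltransferase, had 53.8 FPKM in WT (35.2 to 72.2) and 67.4 in acc1-5 (44.0 to 90.4), with q = 0.278 in the authors' deposited table. These steps lay a little above WT in acc1-5, with bounds that overlapped widely. SOT16 (AT1G74100, chromosome 1, 27864345 to 27865694), the sulfotransferase of the last core step, had 95.4 FPKM in WT (60.6 to 129) and 115 in acc1-5 (72.3 to 157), with q = 0.457 in the authors' deposited table. CYP81F2 (AT5G57220, chromosome 5, 23187840 to 23189857), a hydroxylase of the finished molecule's ring needed for defence against fungi, had 23.6 FPKM in WT (15.4 to 31.7) and 30.3 in acc1-5 (18.2 to 42.0), with q = 0.312 in the authors' deposited table.

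The log2 ratios of SUR1, UGT74B1, SOT16 and CYP81F2 were 0.33, 0.32, 0.27 and 0.36. Changes of this size were below what the authors' test called. The smallest absolute log2 ratio called among tested genes within 2-fold of their levels was 0.48 for SUR1 and SOT16 and 0.49 for UGT74B1 and CYP81F2. Their differences were therefore not detectable here, which does not show that the levels were equal.

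**Figure D2:**
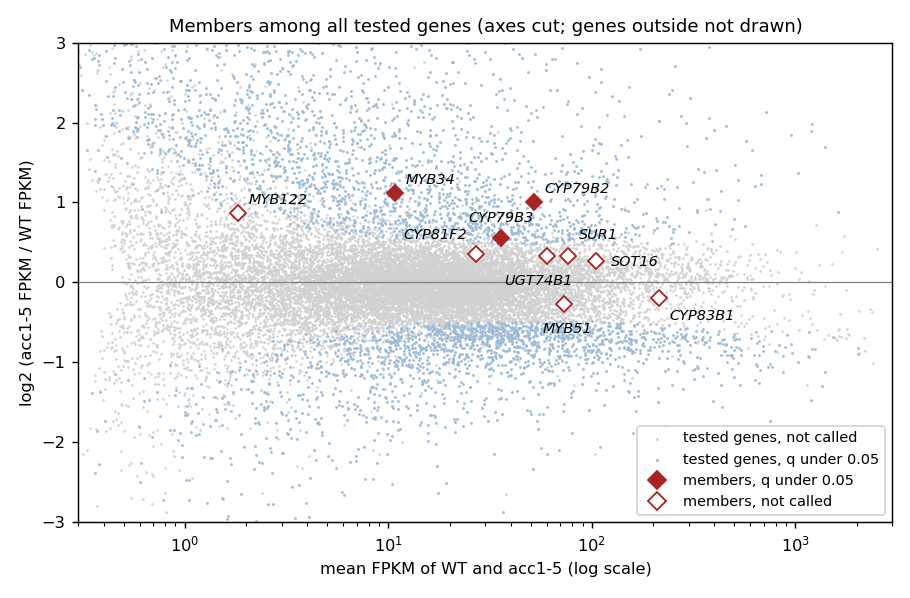
Log2 ratio of acc1-5 to WT against mean FPKM (log axis) for all tested genes, grey where not called and blue where q was under 0.05. Diamonds are the 10 indole glucosinolate genes, filled where called. MYB34 and CYP79B2 lie where most genes of like level and change were called (86.1% and 94.3%), CYP79B3 where 46.6% were, and MYB122 where 14.1% were.

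The order of the 10 genes by level was alike in both genotypes at its ends. CYP83B1 and SOT16 led, and CYP81F2, MYB34 and MYB122 closed the list in each. In WT the bounds of CYP83B1 and SOT16 lay apart, as did those of CYP81F2 and MYB34 and of MYB34 and MYB122, while those of every other pair of neighbours overlapped. In acc1-5 the bounds lay apart between MYB34 and MYB122 alone among neighbours. CYP79B2 held rank 6 in WT and rank 4 in acc1-5, and MYB51 ranks 3 and 6, among neighbours whose bounds overlapped. By mean level, 8 of the 10 genes stood above the median of tested genes. MYB122 lay at the 12.7th percentile and CYP83B1 at the 96.9th.

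The members are spread over chromosomes 1, 2, 4 and 5, with 4 of them on chromosome 1. MYB122 and SOT16 lie in a stretch of 10.0 kb on chromosome 1, with AT1G74088 and SOT18 between them. None of the 10 loci overlaps that of another listed gene. CYP79B2 lies next to APK2, a gene of the sulfate donor, on chromosome 4. Of the 20 genes that directly flank a member, 14 were tested, with a median log2 ratio of -0.04. Of these 14, 1 was called higher and 2 lower, against 10.9% and 9.04% of all tested genes.

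Of 11 tested genes for tryptophan, the starting compound of the pathway, 4 were called higher and none lower. The shares among all tested genes were 10.9% and 9.04%. The list median was 0.61 on the log2 scale. TSB2, a tryptophan synthase beta subunit gene, rose from 8.97 FPKM (5.57 to 12.3) to 18.2 (12.0 to 24.3), with q = 0.000746 in the authors' deposited table. TSA1, of the alpha subunit, rose from 119 to 196 FPKM (q = 0.00923 in the authors' deposited table). The more abundant beta subunit gene TSB1 rose from 182 to 297 (q = 0.0394), and ASA1, for the first committed enzyme, anthranilate synthase, from 66.0 to 102 (q = 0.0378), in the authors' deposited table. TSB1 and TSB2 are close copies, so the split of reads between them is uncertain. The 7 uncalled genes had log2 ratios between -0.64 and 0.89. Of this list, 2 genes were called higher with q under 0.01 in place of 0.05 and 1 with a fold limit of 2. Where the bounds had to lie apart it was 0, against 6.88% of all tested genes in either direction. Shares of all tested genes at the other limits were not computed.

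Of 8 other genes for core steps and for the sulfate donor, 5 were called higher, against 10.9% of all tested genes. None was called lower, against 9.04%, and the list median was 0.50 on the log2 scale. These data do not tell which class of glucosinolates these 8 genes serve. GSTF10, a glutathione transferase gene, rose from 384 FPKM (222 to 527) to 887 (435 to 1338), with q = 0.00138 in the authors' deposited table. Its bounds overlapped. GSTF9, which lies close to it on chromosome 2 and is named after its value was seen, was not called. It stood at 1396 FPKM in WT and 1643 in acc1-5, with q = 0.767 in the authors' deposited table. How reads were split between GSTF9 and GSTF10 was not tested. GGP1, whose product trims the glutathione conjugate, rose from 228 (136 to 307) to 426 (244 to 598), with q = 0.000746 in the authors' deposited table. Smaller rises with q near the threshold were those of APK1, a kinase gene of the sulfate donor (63.0 to 91.9 FPKM, q = 0.0265 in the authors' deposited table), and of the SOT16 relatives SOT18 and SOT17. SOT18 went from 37.7 to 53.1 FPKM and SOT17 from 26.3 to 37.4, with q = 0.0458 and q = 0.0460 in the authors' deposited table. APK2, the neighbour of CYP79B2, was not called, at 57.0 FPKM in WT (35.8 to 76.8) and 75.3 in acc1-5 (46.8 to 102), with q = 0.136 in the authors' deposited table. The count of genes called higher in this list was 2 with q under 0.01 and 1 with a fold limit of 2. Shares of all tested genes at these limits were not computed. With bounds that had to lie apart the count was 0, against 6.88% of all tested genes in either direction.

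Of 8 other genes that modify the indole ring, 3 were called higher and none lower, against 10.9% and 9.04% of all tested genes. The list median was 0.50 on the log2 scale. CYP81F4, whose enzyme hydroxylates the indole nitrogen, rose from 25.5 FPKM (17.4 to 33.6) to 64.0 (42.7 to 85.3), with q = 0.000746 in the authors' deposited table. IGMT5, the methyltransferase gene of the same branch, rose from 17.5 (11.1 to 24.0) to 60.3 (39.7 to 80.9), a 3.44-fold change with the same q in the authors' deposited table. In both, and in CYP81F3, the bounds of the genotypes lay apart, against 6.88% of all tested genes. CYP81F3 rose from 0.776 FPKM (0.264 to 1.27) to 3.26 (1.64 to 4.86; q = 0.000746), while CYP81F1, not called, stood at 5.90 FPKM in WT and 9.94 in the mutant (q = 0.0628), both by the authors' deposited table. The loci of CYP81F4, IGMT5 and CYP81F1 each overlap another listed gene, and use of strand in counting is not stated, so reads may be shared. The overlapping genes stood at 0 in both genotypes at CYP81F4, at 0.721 and 0.774 FPKM at IGMT5 (AT1G76780), and at 8.88 and 9.59 at CYP81F1 (AT4G37432).

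The methyltransferase genes IGMT1, IGMT2, IGMT3 and IGMT4, named after their values were seen, had log2 ratios between -0.53 and 0.25 and none was called. IGMT4, the most abundant, stood at 388 FPKM in WT (242 to 534) and 269 in acc1-5 (158 to 380), with q = 0.133 in the authors' deposited table. These 4 genes are close copies in tandem, so their single levels are uncertain. Of the summed level of the 4 CYP81F genes, CYP81F4 held 45.7% in WT and 59.6% in acc1-5, and CYP81F2 42.3% and 28.2%. IGMT5 held 3.69% of the summed IGMT level in WT and 15.2% in acc1-5. Whether CYP81F4 and CYP81F2 changed by different amounts was not tested.

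**Figure D3:**
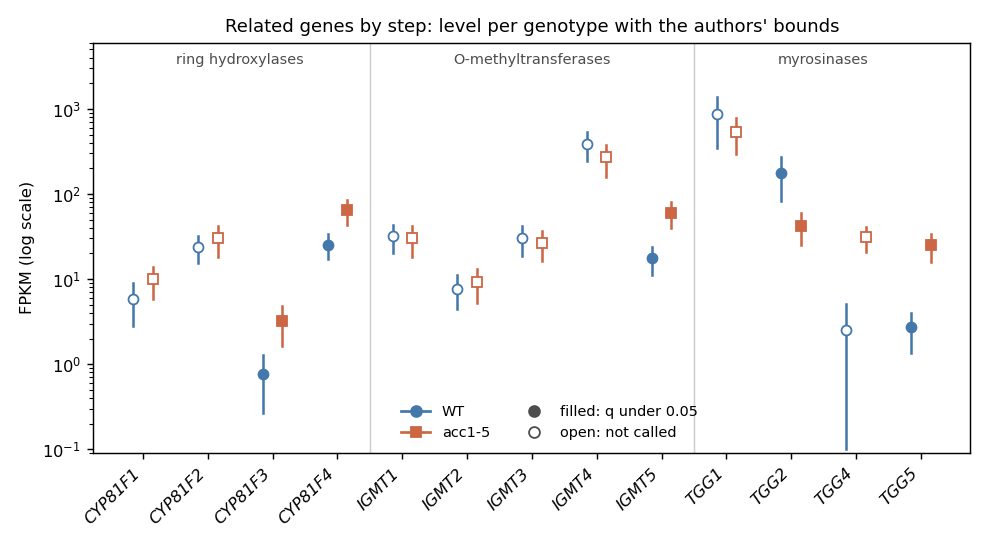
Level in WT (circles) and acc1-5 (squares) of the CYP81F hydroxylase, IGMT methyltransferase and TGG myrosinase genes, in FPKM on a log scale, with the authors' confidence bounds as lines and filled symbols where q was under 0.05. The lower bound of TGG4 in WT is 0 and runs off the axis. CYP81F3, CYP81F4, IGMT5 and TGG5 were called higher in acc1-5 and TGG2 lower, with bounds apart in each case. Among all tested genes, 10.9% were called higher and 9.04% lower, and the bounds lay apart for 6.88%.

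Genes of breakdown and transport went both ways, with 3 of 14 called higher, 2 lower and a median of 0.03. Among all tested genes, 10.9% were called higher and 9.04% lower. Among the myrosinase genes, TGG5, known as a gene of the root, rose from 2.70 FPKM (1.35 to 4.05) to 25.1 (16.1 to 34.2), with q = 0.000746 in the authors' deposited table. TGG2, known as a gene of the shoot, fell from 177 (82.5 to 272) to 42.4 (25.5 to 59.3), with the same q in the authors' deposited table. Of their closest relatives, named after their values were seen, TGG4 stood at 2.54 FPKM (0 to 5.05) in WT and 30.9 (20.6 to 41.2) in acc1-5, and TGG1 at 872 and 536. Neither was called, with q = 0.140 for TGG4 and 0.139 for TGG1 in the authors' deposited table, although the bounds of TGG4 lay apart.

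PYK10, a beta-glucosidase gene of the ER bodies of roots, rose from 577 FPKM (305 to 848) to 1483 (471 to 2495), with q = 0.00851 in the authors' deposited table. ESM1, which favours isothiocyanates among the breakdown products, fell from 293 (125 to 460) to 36.2 (23.4 to 48.8), with q = 0.000746 in the authors' deposited table. NSP1, which favours nitriles and is named after its value was seen, rose from 111 to 254 FPKM with the same q in the authors' deposited table. The other 7 genes of the list that were not called include the atypical myrosinase gene PEN2 and the exporter gene PEN3. The locus of PYK10 overlaps that of AT3G09250, which had 24.7 FPKM in WT and 24.1 in acc1-5.

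Of 9 tested genes for other uses of indole acetaldoxime, the product of the CYP79B pair, 5 were called higher and 1 lower. This stands against 10.9% and 9.04% of all tested genes. The median log2 ratio of the list was 0.93. In the camalexin branch, CYP71A13 rose from 11.3 FPKM (6.89 to 15.7) to 79.3 (39.2 to 119), PAD3 from 12.2 to 56.0 and CYP71A12 from 26.0 to 55.3, each with q = 0.000746 in the authors' deposited table. The level of CYP71A13 was 32.9% of that of CYP79B2 in WT and 114% in acc1-5. NIT3, a nitrilase gene, rose from 6.14 to 28.7 FPKM with the same q in the authors' deposited table. NIT1, named after its values were seen, counts as not called by its main transcript (266 and 382 FPKM, q = 0.468 in the authors' deposited table). Another NIT1 transcript stood at 196 FPKM in WT and 449 in acc1-5, with q = 0.0360 in the authors' deposited table. How reads were split among NIT1, NIT2 and NIT3, which lie close together on chromosome 3, was not tested. The remaining called genes, named after their values were seen, were AT1G26380, which rose from 12.3 to 23.4 FPKM, and the amidase gene AMI1, which fell from 106 to 58.6. CYP71A12 and CYP71A13 are close copies, so reads may be split between them.

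Of 7 upstream regulators tested, none was called higher or lower, against 10.9% and 9.04% of all tested genes. MYC2, the transcription factor gene of jasmonate signalling that also acts on glucosinolate genes, stood at 26.2 FPKM in WT (17.8 to 34.6) and 33.6 in acc1-5 (22.5 to 44.6), with q = 0.211 in the authors' deposited table. The log2 ratios of the list, which holds MYC3, MYC4, IQD1, OBP2, WRKY33 and SLIM1 as well, lay between -0.22 and 0.67. With q under 0.10 in place of 0.05, 1 of them was called higher. The share of all tested genes at that limit was not computed.

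The aliphatic glucosinolate genes are those of the sister class made from methionine. Of 24 tested, 2 were called higher and 1 lower, against 10.9% and 9.04% of all tested genes. Their median log2 ratio was -0.002. That median was above 0 under 4 alternatives, at 0.002 with FPKM summed over transcripts, 0.004 after centring on all tested genes, 0.02 after upper quartile scaling and 0.06 with a mean FPKM of at least 1. MYB29, one of the regulators of that class, fell from 7.24 FPKM (4.29 to 10.2) to 1.56 (0.625 to 2.47), with q = 0.000746 in the authors' deposited table. Of the other aliphatic regulators, named after their values were seen, MYB28 had 20.2 and 26.6 FPKM (q = 0.384) and MYB76 1.06 and 0.282 (q = 0.0745), in the authors' deposited table. CYP79F2, for an entry enzyme of the methionine branch, rose from 12.4 to 28.1 FPKM (q = 0.000746), and MAM3, of side-chain elongation, from 74.0 to 119.6 FPKM (q = 0.00810), in the authors' deposited table. The other entry gene CYP79F1, named after its value was seen, stood at 54.9 FPKM in WT and at 44.0 in the mutant, with q = 0.334 in the authors' deposited table. AOP2, a side-chain gene also named after its value was seen, stood at 0.938 and 0.0136 FPKM and was not called (q = 0.407 in the authors' deposited table). Each class had 1 called MYB regulator, MYB34 higher in the indole class and MYB29 lower in the aliphatic class. The uncalled regulators went both ways in each class. Their log2 ratios were -0.27 for MYB51 and 0.87 for MYB122, and 0.40 for MYB28 and -1.91 for MYB76. The other genes for core steps and for the sulfate donor, SOT17 and SOT18 among them, were not counted with the aliphatic class. Whether the classes differ was not tested.

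**Figure D4:**
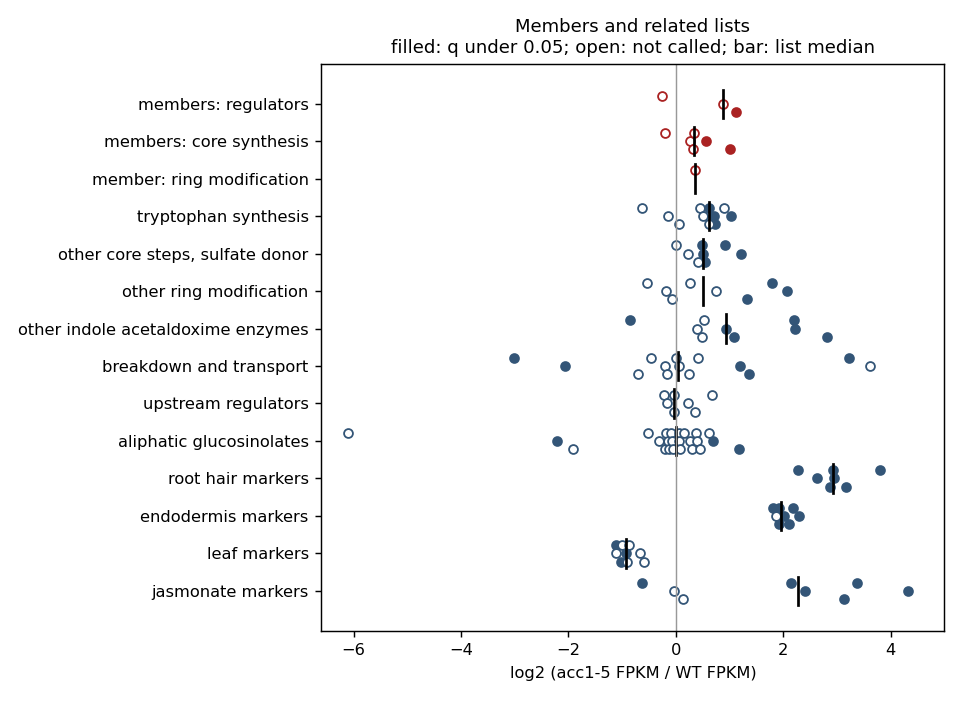
Log2 ratio of acc1-5 to WT for each tested gene of the members (red) and of the related and marker lists (blue). Filled symbols had q under 0.05, open ones were not called, and bars are list medians. The medians run from -0.94 for leaf markers to 2.93 for root hair markers, with 0.33 for the core synthesis members.

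Markers of root and leaf tissue moved in the same comparison. The counts below stand against 10.9% of all tested genes called higher and 9.04% called lower. Of 7 root hair markers, 7 were called higher, and their summed level was 16.4 FPKM in WT and 134 in acc1-5. Of 9 endodermis markers 8 were tested and 7 called higher, with summed levels of 11.8 and 49.2 FPKM. All 9 leaf photosynthesis markers had lower levels in acc1-5, of which 3 were called, with summed levels of 25629 and 13407 FPKM. No marker of these lists was at 0 in either genotype. Of 8 jasmonate response markers, 5 were called higher and 1 lower, with a median log2 ratio of 2.27 and summed levels of 256 FPKM in WT and 667 in acc1-5. What part these shifts have in the levels of MYB34, CYP79B2, CYP79B3 and the related genes was not tested. In RNA from whole seedlings, more cells of a type and more RNA per cell cannot be told apart.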

How the data were processed

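RNA-seq values of WT and acc1-5 seedlings were used, and libraries of ChIP and its inputs were not used here. The submitters' processing notes name TAIR10, Bowtie, TopHat (version 1.4.0) and, both at version 2.1.1, Cufflinks and Cuffdiff. The authors deposited FPKM values, 1 per genotype and transcript, with confidence bounds of a level that the sources used here do not state. The authors also deposited a log2 fold change, a p-value and a q-value per transcript, and a test statistic (a score) that was not used. Columns named ACC1 were taken to hold acc1-5, since the labels give RNA libraries for no other mutant.

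The q-values equal p-values adjusted by the Benjamini-Hochberg method over the 25307 tested transcripts, to within 5.27e-07. The smallest p-value is 5e-05, shared by 1697 tested transcripts. The q of 0.000746 belongs to it, so genes with this q have no order. Fold ratios, sums, shares and percentiles were computed from the FPKM with Python 3.11.15 and pandas 2.3.3. List medians and ranges of log2 ratios were taken over the authors' deposited log2 fold changes. The adjustment was tested on simulated data. The design planned limma for single libraries, which the tables do not hold, so the authors' q-values were used. Depth is unknown, because low FPKM values were not whole multiples of a common step. At the best step, 21.8% of 1589 values in WT and 24.8% of 1494 in acc1-5 came within 5% of a whole multiple. These were the values in range of that step, out of 3341 and 3286 low values. Each level pools 3 libraries, so a common step need not exist. Whether the 3 libraries per genotype came from separately grown seedlings is not stated, so the p-values may measure technical spread.

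The members, the 7 pathway lists and the 4 marker lists were chosen with earlier results of these data known. Named are the 10 members, up to 4 called genes with the largest ratios per pathway list, and a fixed set of relatives, neighbours and enzymes of the shared intermediate, and genes outside this rule are marked as such. Gene names come from RefSeq (TAIR10.1), which held 118 of the 126 names used in the lists, and genes without a matching name keep their identifiers. Alternatives were other q limits, a fold limit, gene sums, adjustment over genes, bounds, pseudocounts, scalings and a filter on low levels. Promoter motifs were planned but not analysed here.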

Additional observations from a re-analysis of the deposited data

How the results depend on the processing

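The direction of all 10 indole glucosinolate genes was the same under each of the 11 alternatives that gave it a value. Most of them could not change it, since they kept the authors' log2 ratio or added a constant to both levels. The shifts by centring and upper quartile scaling were smaller than the member ratio nearest 0, -0.20 for CYP83B1. Gene sums could change SUR1 alone, the member with a second transcript. The count of members called higher was 3 in the main setting. It stayed within 1.5 times of that under every alternative except that of bounds that do not overlap. There it was 1 in 10, CYP79B2, against 6.88% of all tested genes with bounds apart in either direction. Gene sums, pseudocounts and scalings kept the authors' call, so there the count could change only with a direction. The filter on low levels removed no member. CYP79B3 was not called at q under 0.01 or with a fold limit of 2, and the count of members called lower was 0 throughout. Over the 7 pathway lists, 22 of 81 tested genes were called higher and 4 lower, against 10.9% and 9.04% of all tested genes. Shares of all tested genes were computed at q under 0.05 and for bounds apart, not at the other limits. With a fold limit of 2 the count of higher genes was 13, with bounds apart it was 10, and with q under 0.10 the count of lower genes was 7. Centring shifted log2 ratios by 0.01 and upper quartile scaling by 0.03. For 50 of the genes named, 33 of 548 alternative values lost the call, 4 gained one and none reversed. Here too, most alternatives kept the direction by construction. No paired analysis was possible because the tables give 1 value per genotype, and for the same reason no library could be left out. The promoter motif alternative was not run. The precision is limited by the authors' bounds, whose median half-width for the 10 genes was 34.4% of the level in WT and 36.5% in acc1-5.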

Other observations

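Of the 14 tested genes that flank a member, 1 was called higher and 2 lower, against 10.9% and 9.04% of all tested genes. The largest absolute log2 ratio among the 14 belonged to AT5G60900, which lies 2115 bases past MYB34. This gene was singled out after its value was seen. It fell from 8.15 FPKM in WT to 2.02 in acc1-5, a log2 ratio of -2.01 with q = 0.000746 in the authors' deposited table, while MYB34 rose. The gene on the other side of MYB34, AT5G60880, had 2.56 and 1.84 FPKM (q = 0.533 in the authors' deposited table). Next to CYP83B1, AT4G31510 fell from 52.0 to 35.1 FPKM (q = 0.0270 in the authors' deposited table). Between MYB122 and SOT16 on chromosome 1, SOT18 rose to 53.1 FPKM from 37.7. AT1G74088, which also lies between them, had 6.84 and 5.16 FPKM (q = 0.508 in the authors' deposited table). The flanking gene AT1G74070 on the far side of MYB122 had 26.3 and 18.1 FPKM (q = 0.0519 in the authors' deposited table).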
